A study of Mus musculus with 20 samples.

Results

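The 10 genes followed here handle fatty acids in muscle: Cd36, Fabp3, Lpl, Cpt2, Acadvl, Acadl, Acadm, Decr1, Ucp2 and Ucp3. All probe sets that the annotation of the Affymetrix MG_U74Av2 array pairs with these symbols were taken, whatever their values, which gave 13 probe sets of 9 genes, among 8251 genes with a probe set of their own and 12422 probe sets besides controls. The signal of Ucp2 is not analysed here, and only its promoter is counted below. RNA was hybridised from the left ventricle of SJL/J mice, the left ventricle of C57BL/6 mice, the quadriceps muscle of SJL/J mice and the quadriceps muscle of C57BL/6 mice, with 5 arrays per group, each array labelled as a biological replicate. All mice were females, bought at 4 to 6 weeks of age and studied at 32 to 34 weeks, and labelling started from 8 µg of RNA. SJL/J is an inbred strain that carries a 171-bp in-frame deletion in the dysferlin gene, which removes 57 amino acids, and it develops a spontaneous myopathy; the C57BL/6 mice served as controls with normal dysferlin. Dysferlin genotype and strain background cannot be told apart, since no other SJL/J or dysferlin-mutant group was included. The C57BL/6 muscle is given as the right quadriceps, while the description of the SJL/J quadriceps arrays names the left ventricle as the source of their RNA and their source field names quadriceps.

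Long-chain fatty acids reach muscle from lipoproteins, whose triglycerides lipoprotein lipase (Lpl) splits at the vessel wall, and cross the fibre membrane with the help of the receptor Cd36. Inside the cell the heart-type binding protein Fabp3 carries them, Cpt2 releases them from carnitine on the inner side of the inner mitochondrial membrane, and the acyl-CoA dehydrogenases Acadvl, Acadl and Acadm, for very long, long and medium chains, start each round of beta-oxidation, with Decr1 needed for unsaturated chains. Ucp3 is an uncoupling protein of muscle mitochondria whose transcript follows the supply of fatty acids. Many of these genes are known targets of nuclear receptors of the PPAR and oestrogen-related receptor families, which bind repeats or extensions of the half-site AGGTCA.

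The 250 bases upstream of the RefSeq gene start (GRCm38.p6) are shown for Fabp3 and Ucp3, which were lower in SJL/J left ventricle, and for Acadm and Cd36, whose strain difference there did not pass the test. Capitals mark AGGTCA, or TGACCT where it lies on the other strand. The windows are Fabp3 at chr4:130308488-130308737 (plus strand), Ucp3 at chr7:100472741-100472990 (plus strand), Acadm at chr3:153944644-153944893 (minus strand) and Cd36 at chr5:17835897-17836146 (minus strand), each written 5′ to 3′ on the strand of its gene.
Fabp3: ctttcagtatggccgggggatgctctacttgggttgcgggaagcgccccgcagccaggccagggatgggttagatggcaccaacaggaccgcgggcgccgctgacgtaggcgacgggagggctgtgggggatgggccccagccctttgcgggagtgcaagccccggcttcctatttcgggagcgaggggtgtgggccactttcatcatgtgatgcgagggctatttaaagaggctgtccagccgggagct
Ucp3: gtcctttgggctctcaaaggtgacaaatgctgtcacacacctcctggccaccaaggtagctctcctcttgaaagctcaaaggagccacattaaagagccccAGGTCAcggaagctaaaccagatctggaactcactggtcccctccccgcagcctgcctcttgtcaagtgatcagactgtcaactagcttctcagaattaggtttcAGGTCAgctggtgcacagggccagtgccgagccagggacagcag
Acadm: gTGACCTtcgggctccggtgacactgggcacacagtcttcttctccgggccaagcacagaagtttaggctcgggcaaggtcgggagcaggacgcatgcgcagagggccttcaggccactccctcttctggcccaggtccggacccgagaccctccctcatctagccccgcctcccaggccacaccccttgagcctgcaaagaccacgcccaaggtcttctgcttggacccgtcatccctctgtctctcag
Cd36: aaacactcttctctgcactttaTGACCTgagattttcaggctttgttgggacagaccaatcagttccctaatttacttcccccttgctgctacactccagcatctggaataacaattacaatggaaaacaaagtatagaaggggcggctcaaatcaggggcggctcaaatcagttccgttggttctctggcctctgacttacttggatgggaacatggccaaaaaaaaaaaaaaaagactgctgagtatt
The half-site AGGTCA was found on either strand in 4 of the 8 promoters of these genes that matched the table, at -149 and -44 from the gene start in Ucp3, -249 in Acadm, -228 in Cd36 and -87 in Acadvl, while 14.0% of 32851 RefSeq promoters of the same length held it. A direct repeat of 2 half-sites spaced 1 base apart was in 0 of the 8 and in 0.0335% of all promoters, and the extended half-site TCAAGGTCA was in 0 of the 8 and in 0.387%. Both of these longer motifs contain AGGTCA, so their matches overlap with it. The E-box CANNTG was in 6 of the 8 and in 66.2% of all. The Fabp3 window held no AGGTCA and the Ucp3 window held 2, so the promoters of these genes, both lower in SJL/J left ventricle, differed in this respect. Decr1 and Lpl had no entry.

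Values are linear intensities (signals) that the authors had scaled to a common target, and no present or absent calls were used. Of the 20 arrays, 4 were kept out of the main tests because they carried transcripts of both tissues. Summed over 6 markers that define heart muscle (Myh6, Tnnt2, Tnni3, Ryr2, Nppa and Myl7), the signal was 38640 and 42150 on SJL/J quadriceps arrays 1 and 5, against 424.1 to 10840 on the other SJL/J quadriceps arrays (array 3 highest) and 274.1 to 6367 on the C57BL/6 quadriceps arrays. Tested left ventricle arrays had 43010 to 51540 in SJL/J and 32090 to 37100 in C57BL/6. SJL/J quadriceps array 3 (10840) and C57BL/6 quadriceps array 2 (6367) were tested although they also carried heart transcripts. The part of these transcripts in the quadriceps levels was not tested. Summed over 6 markers that define fast skeletal muscle, Myh4 and Tnnt3 among them, it was 12660 on SJL/J left ventricle array 1 and 8854 on C57BL/6 left ventricle array 5. The arrays that were tested had sums of these skeletal markers of 53.0 to 96.2 in SJL/J left ventricle, 56.6 to 1464 in C57BL/6 left ventricle, 64570 to 67690 in SJL/J quadriceps and 43420 to 130100 in C57BL/6 quadriceps, so the marker sums of the tested arrays separated the labelled tissues. Tests therefore used 4 SJL/J and 4 C57BL/6 left ventricle arrays, 3 SJL/J and 5 C57BL/6 quadriceps arrays, in a single limma fit of 7180 probe sets, and the values with all 20 arrays are given beside them. The 5′ to 3′ signal ratio of Gapdh, a measure of RNA and labelling quality, was 0.258 ± 0.109 in SJL/J left ventricle, 0.780 ± 0.0812 in C57BL/6 left ventricle, 0.586 ± 0.0808 in SJL/J quadriceps and 0.831 ± 0.217 in C57BL/6 quadriceps (SD, n = 4, 4, 3 and 5). All tested SJL/J left ventricle arrays came from 1 fluidics run and all tested C57BL/6 left ventricle arrays from another, so strain and run cannot be told apart there. Errors below are SD for signals and SE for log2 differences, with these n, and calls are those with an adjusted p under 0.05 (Benjamini-Hochberg, over all 7180).

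Of the 13 probe sets, 9 were bright enough to be tested, and they read 8 genes; the filter asked for a mean intensity over 69.0 in 1 group or more. The other 4 stayed near background on every tested array: the 2 of Acadvl at 1.0 to 40.0, the second of Cd36 (161704_r_at) at 0.4 to 1.1 and the second of Cpt2 (161978_r_at) at 0.6 to 2.1, so nothing is said of Acadvl, and Cd36 and Cpt2 rest on 1 probe set each. Lpl has 2 tested probe sets, which are reported separately.

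**Figure D1:**
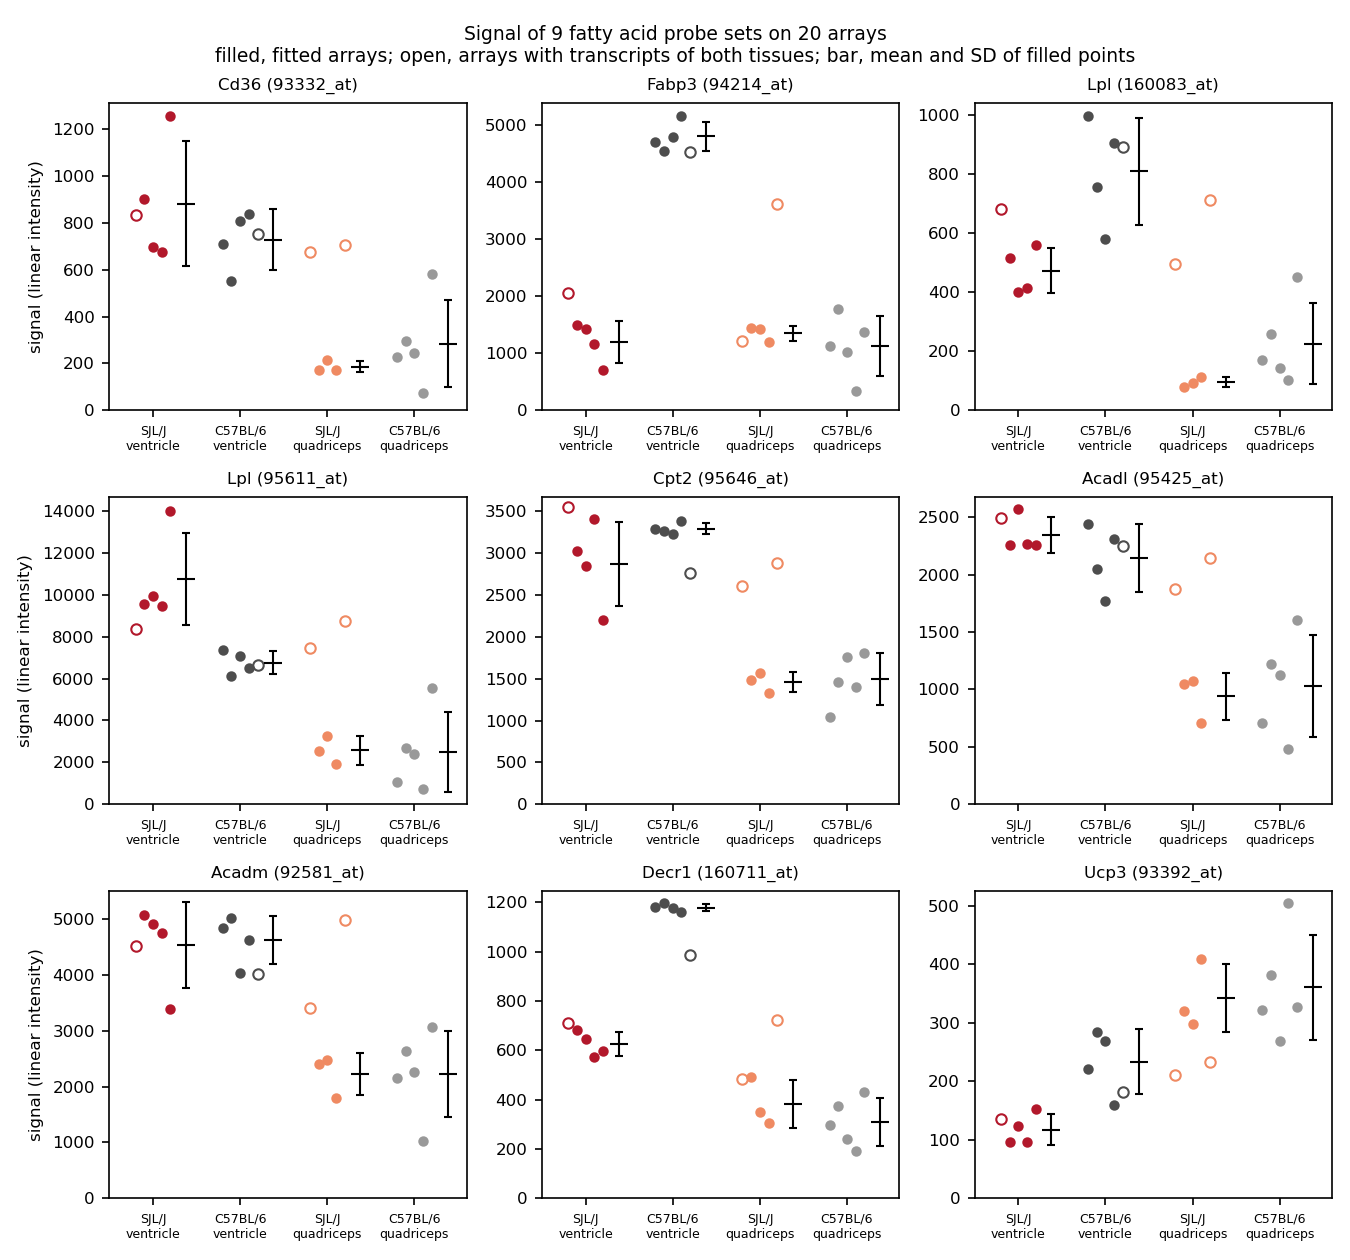
Signal (linear intensity, y axis from 0) of the 9 tested probe sets on each array, by group on the x axis. Filled points are the arrays that entered the tests, open points the 4 arrays with transcripts of both tissues, and the bar is the mean with SD of the filled points. Fabp3 and Decr1 are low in SJL/J left ventricle relative to C57BL/6 left ventricle with no overlap, and the open quadriceps points of Cd36, Lpl, Cpt2, Acadl and Acadm lie above the filled quadriceps points of SJL/J.

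In left ventricle, 3 of the fatty acid genes fell in SJL/J mice: the carrier Fabp3 by 4.17-fold, the uncoupling protein Ucp3 by 1.98-fold and the dienoyl-CoA reductase Decr1 by 1.89-fold. The other 6 probe sets, of Cd36, Lpl, Cpt2, Acadl and Acadm, did not pass the test. Fewer cells of a type and less RNA per cell cannot be told apart in such bulk samples. Of all probe sets tested, 12.7% were lower and 9.09% higher, so 3 lower and 0 higher of 9 compares with that background (at an unadjusted p under 0.05 limma gave 4 lower and 0 higher). The median log2 difference of the 9 was -0.22, beside 0.04 over all. With all 20 arrays 3 were again called, beside 18.4% of all in either direction.

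Fabp3, the heart-type fatty acid binding protein of the cytosol, had signals of 1497, 1431, 1159 and 703 on SJL/J left ventricle arrays 2 to 5, against 4708, 4536, 4796 and 5153 on C57BL/6 arrays 1 to 4. Every SJL/J array was far below every C57BL/6 array, and the C57BL/6 arrays lay close together. Means were 1197 ± 361 in SJL/J and 4798 ± 260 in C57BL/6, a log2 difference of -2.06 ± 0.36 (95% interval -2.83 to -1.29, limma adjusted p = 0.00067). It was -1.88 (adjusted p = 0.00129) with all 20 arrays. Decr1, which lets unsaturated fatty acids enter the beta-oxidation cycle, read 681, 646, 574 and 596 on the SJL/J arrays, against 1181, 1197, 1176 and 1160 on the C57BL/6 arrays. The C57BL/6 arrays differed by 1.03-fold from lowest to highest, and the groups did not overlap. The log2 difference was -0.92 ± 0.21 (-1.36 to -0.49, adjusted p = 0.00429), and -0.83 with all 20 arrays. Ucp3 read 97.0, 123.5, 96.5 and 152.7 in SJL/J left ventricle and 220.9, 284.4, 269.5 and 160.1 in C57BL/6 left ventricle. The highest SJL/J array and the lowest C57BL/6 array lay close to each other, without overlap. Its log2 difference was -0.99 ± 0.22 (-1.45 to -0.52, adjusted p = 0.00442), and -0.87 with all 20 arrays.

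The 2 probe sets of Lpl ran in opposite directions in left ventricle. Probe set 160083_at read 516, 402, 416 and 561 on SJL/J arrays, against 998, 759, 582 and 905 on C57BL/6 arrays. Probe set 95611_at read 9572, 9952, 9445 and 14014 on SJL/J arrays, against 7343, 6127, 7062 and 6524 on C57BL/6 arrays. In each of them the groups did not overlap, with SJL/J on the low side in the first and on the high side in the second. The log2 differences were -0.76 ± 0.33 (-1.45 to -0.07, limma adjusted p = 0.106) and 0.65 ± 0.43 (-0.25 to 1.55, adjusted p = 0.3), so neither was called, though both were when the 2 ventricle groups were fitted by themselves (adjusted p = 0.00627 and 0.0028). No single direction can be given for Lpl in left ventricle. In all, 4 probe sets (Fabp3, Decr1, Ucp3 and Lpl 160083_at) had every SJL/J array below every C57BL/6 array, beside 17% of all probe sets, and 1 (Lpl 95611_at) had every SJL/J array above, beside 17.7%. Each of these 5 had a two-sided exact permutation p of 0.0286, the smallest that 4 arrays against 4 allow.

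The remaining genes gave no call in left ventricle. Cd36, the membrane receptor that takes up fatty acids, averaged 882 ± 268 in SJL/J and 728 ± 129 in C57BL/6 (log2 0.25 ± 0.41, -0.61 to 1.11). Cpt2, the inner carnitine palmitoyltransferase, averaged 2869 ± 504 in SJL/J and 3293 ± 63.2 in C57BL/6 (log2 -0.22 ± 0.16, -0.56 to 0.13). Acadl, the long-chain dehydrogenase, averaged 2340 ± 157 in SJL/J and 2142 ± 296 in C57BL/6 (log2 0.14 ± 0.27, -0.44 to 0.71). Acadm, the medium-chain dehydrogenase, averaged 4526 ± 767 in SJL/J and 4625 ± 430 in C57BL/6 (log2 -0.04 ± 0.25, -0.58 to 0.49). The groups overlapped in all 4.

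The calls of Fabp3 and Decr1 in left ventricle did not hold in a fit that included RNA quality. With the Gapdh ratio as a covariate the log2 difference was -0.30 for Fabp3 (adjusted p = 0.614) and -0.21 for Decr1 (adjusted p = 0.655), while Ucp3 was -1.53 (adjusted p = 0.0101); since the ratio differs between the groups with no overlap, strain and RNA quality cannot be told apart. The 1 run that held both strains of left ventricle consists of the arrays with transcripts of both tissues. In that run the single SJL/J array gave log2 differences from the single C57BL/6 array of -1.14 for Fabp3, -0.47 for Decr1 and -0.43 for Ucp3, beside -0.39 for Lpl 160083_at, 0.15 for Acadl and for Cd36, 0.17 for Acadm, 0.33 for Lpl 95611_at and 0.36 for Cpt2. With run as a block over all 20 arrays, which takes the left ventricle comparison from that pair, limma called 0 of the 9 in left ventricle (0 at an unadjusted p under 0.05), with adjusted p of 0.592 for Fabp3, 0.813 for Decr1 and 0.861 for Ucp3. With run as a random block it also called 0 (3 at an unadjusted p under 0.05).

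**Figure D2:**
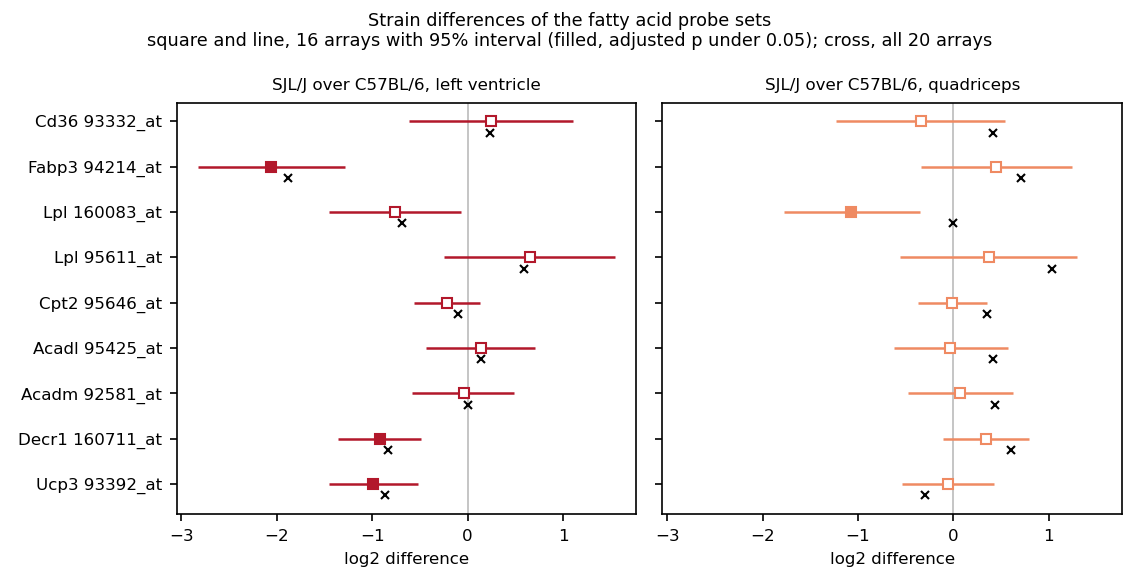
Log2 difference SJL/J over C57BL/6 (x axis) of each tested probe set, in left ventricle on the left and in quadriceps on the right. Squares with 95% intervals come from the 16 tested arrays, filled where the adjusted p is under 0.05, and crosses from all 20 arrays. Fabp3, Decr1 and Ucp3 are filled in left ventricle and Lpl 160083_at in quadriceps, where its cross lies at 0.

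In quadriceps, 1 of the 9 probe sets was called between the strains. Lpl 160083_at was lower in SJL/J, and the second Lpl probe set was not. Over all probe sets 8.3% were lower and 9.85% higher (596 and 707; with arrays centred on their medians, 792 and 516), so 1 lower and 0 higher of 9 is near the background. The median log2 difference of the 9 was -0.01, beside 0.06 over all. A fit of all 20 arrays also called 1, Decr1 in place of Lpl, beside 22.2% of all in either direction.

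Lpl 160083_at read 80.1, 94.1 and 111.9 on SJL/J quadriceps arrays 2 to 4, against 172.3, 257.9, 144.9, 104.0 and 451.3 on C57BL/6 quadriceps arrays 1 to 5. The highest SJL/J array lay above the lowest C57BL/6 array, so the groups overlapped. The log2 difference was -1.07 ± 0.34 (-1.78 to -0.35, limma adjusted p = 0.0361), with a two-sided exact permutation p of 0.0714, and it was 0.00 with all 20 arrays (adjusted p = 0.996). Leaving out SJL/J array 2, 3 or 4 or C57BL/6 array 2 or 5 ended the call, with adjusted p between 0.0523 and 0.138. Lpl 95611_at read 2565, 3256 and 1900 on the SJL/J arrays, against 1085, 2692, 2399, 721 and 5532 on the C57BL/6 arrays. All SJL/J values lay within the C57BL/6 range, and the log2 difference was 0.37 (adjusted p = 0.61). As in left ventricle, the 2 probe sets gave no common direction.

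Fabp3 read 1440, 1419 and 1197 in SJL/J quadriceps, against 1119, 1776, 1015, 335 and 1380 in C57BL/6 quadriceps (log2 0.45, adjusted p = 0.448). Ucp3 read 320.6, 297.6 and 408.8 in SJL/J and 322.0, 381.4, 268.6, 505.6 and 326.5 in C57BL/6 (log2 -0.06, adjusted p = 0.896). Decr1 read 490, 349 and 305 in SJL/J and 297, 376, 242, 194 and 432 in C57BL/6 (log2 0.34, adjusted p = 0.299). The strains overlapped in all 3, including the genes that fell in SJL/J left ventricle. Decr1 alone was called with all 20 arrays, as higher in SJL/J quadriceps (0.60, adjusted p = 0.0431), where 2 of the 5 SJL/J arrays carry heart transcripts. Cd36 averaged 186 ± 24.5 in SJL/J quadriceps and 284 ± 185 in C57BL/6 quadriceps, and Cpt2 averaged 1462 ± 123 in SJL/J and 1496 ± 307 in C57BL/6. Acadl averaged 943 ± 204 in SJL/J and 1028 ± 442 in C57BL/6, and Acadm 2224 ± 377 in SJL/J and 2226 ± 763 in C57BL/6. None of these 4 was called (limma adjusted p from 0.618 to 0.979), and their strains overlapped. From all 20 arrays the differences in quadriceps were 0.71 for Fabp3, 1.04 for Lpl 95611_at, 0.42 for Cd36, 0.35 for Cpt2, 0.42 for Acadl, 0.44 for Acadm and -0.30 for Ucp3, none of them called. With the Gapdh ratio as a covariate, Fabp3 (1.28, adjusted p = 0.00362) and Decr1 (0.67, adjusted p = 0.0342) were called higher in SJL/J quadriceps and Lpl 160083_at was no longer called (-0.79, adjusted p = 0.18).

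The spread within C57BL/6 quadriceps was wide, and its extremes lay on the same arrays for most of the genes. Array 4 was the lowest of its group in 7 of the 9 probe sets, and array 5 was the highest in 7 of 9. From lowest to highest, the C57BL/6 quadriceps arrays differed by 7.75-fold in Cd36, 7.67-fold in Lpl 95611_at, 5.3-fold in Fabp3 and 1.72-fold in Cpt2, while the 9 probe sets differed by 1.18-fold to 1.71-fold among the 3 SJL/J quadriceps arrays. Ucp3 went the other way, with its highest C57BL/6 value, 505.6, on array 4. The signal was also summed over 7 markers of slow skeletal fibres, which use fatty acids more than fast fibres do. It was 3276, 5624, 3750, 13590 and 23810 on C57BL/6 quadriceps arrays 1 to 5. SJL/J quadriceps arrays 2 to 4 had 8166, 12260 and 5896. Left ventricle arrays had 22200 to 23560 in SJL/J and 22620 to 25440 in C57BL/6, so this sum does not read slow fibres alone. Array 4 had the lowest Gapdh ratio of the C57BL/6 quadriceps arrays, 0.487 against 0.781 to 1.06 on the others. The parts of fibre type and RNA quality in these levels were not tested. Array 4 was also the only C57BL/6 quadriceps array in the inferred run and the chip lot of the tested SJL/J quadriceps arrays. Within that run the log2 differences of SJL/J from it were 2.01 for Fabp3, 1.80 for Lpl 95611_at, 1.30 for Cd36, 1.11 for Acadm, 0.95 for Decr1 and 0.93 for Acadl. With run as a block these 6 were called higher in SJL/J quadriceps (limma adjusted p from 0.000456 to 0.0495), a result that rests on C57BL/6 array 4 alone, and Lpl 160083_at was no longer called (-0.14, adjusted p = 0.853).

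The strain difference itself differed between the tissues in Fabp3 and Decr1. The difference in quadriceps minus that in left ventricle was 2.51 ± 0.52 for Fabp3 (limma adjusted p = 0.00335) and 1.26 ± 0.30 for Decr1 (adjusted p = 0.00744) on the log2 scale. With all 20 arrays the values were 2.58 (adjusted p = 0.00249) and 1.43 (adjusted p = 0.00316), and 14.5% of all probe sets were called. Ucp3 gave 0.93 ± 0.32 and missed the threshold (adjusted p = 0.0511; 0.57 with all 20 arrays, adjusted p = 0.203). The 6 probe sets of Cd36, Lpl, Cpt2, Acadl and Acadm had adjusted p of at least 0.517. Over all probe sets 10.7% had a positive and 7.79% a negative difference of this kind, and the median of the 9 was 0.12 beside 0.04 over all. With run as a block over all 20 arrays limma called Fabp3 (3.14, adjusted p = 0.0175) and not Decr1 (1.42, adjusted p = 0.0856). Those values rest on C57BL/6 quadriceps array 4 in 1 run. In another run they rest on 1 left ventricle array of each strain, both with transcripts of both tissues. They therefore cannot decide whether the difference between tissues holds apart from run. Nor can strain be told apart from RNA quality in left ventricle, where the mean Gapdh ratio was 0.258 in SJL/J and 0.780 in C57BL/6.

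Between the tissues, the genes of uptake, transfer and oxidation were higher in left ventricle than in quadriceps in both strains, except Fabp3 in SJL/J, and Ucp3 was lower. In SJL/J mice 7 of the 9 probe sets rose in left ventricle and 1 fell, beside 23.9% and 20.3% of all probe sets, and Fabp3 was the 1 that did not pass. In C57BL/6 mice 8 rose and 1 fell, beside 29.3% and 20.1% of all (2107 and 1442 probe sets; with arrays centred on their medians, 1543 and 1899). The medians of the 9 were 1.02 in SJL/J and 1.61 in C57BL/6, beside 0.06 and 0.12 over all. Every SJL/J left ventricle array lay above every SJL/J quadriceps array in 7 probe sets (background 30.1%) and below in 1, Ucp3 (25.5%); in C57BL/6, 7 lay above (22.5%) and 0 below (15.1%), with overlap in Cd36 and Ucp3. With all 20 arrays 7 were called in SJL/J, beside 36% of all in either direction, and 9 in C57BL/6, beside 50.4%. The 2 tissue comparisons use different arrays, and the tissue difference of each strain rests on arrays of different runs. On the tested SJL/J arrays the Gapdh ratio was 0.101 to 0.335 in left ventricle and 0.502 to 0.663 in quadriceps. Tissue and RNA quality therefore cannot be told apart in SJL/J, whereas the ratios of the C57BL/6 tissues overlapped.

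Among the uptake genes, Cd36 read 901, 698, 675 and 1254 on SJL/J left ventricle arrays 2 to 5, against 172.3, 214.1 and 171.2 on SJL/J quadriceps arrays 2 to 4. In C57BL/6 it read 711, 552, 809 and 838 in left ventricle, against 226.1, 294.1, 245.4, 75.0 and 581.6 in quadriceps. All SJL/J ventricle arrays stood clear of the muscle arrays, whereas the fifth C57BL/6 quadriceps array reached into the ventricle range. The log2 differences were 2.21 ± 0.44 in SJL/J (limma adjusted p = 0.0006) and 1.61 ± 0.39 in C57BL/6 (adjusted p = 0.00227). Both Lpl probe sets rose in left ventricle, 160083_at by 2.31 ± 0.35 in SJL/J and 2.01 ± 0.31 in C57BL/6, and 95611_at by 2.08 ± 0.46 in SJL/J and 1.79 ± 0.41 in C57BL/6, so here they shared a direction. Fabp3 rose in C57BL/6 left ventricle by 2.28 ± 0.34 (adjusted p = 3.58e-05) and was not called in SJL/J, at -0.23 ± 0.39 (adjusted p = 0.669), where it read 703 to 1497 in left ventricle and 1197 to 1440 in quadriceps; the test of this difference between strains is the one given above. With the Gapdh ratio as a covariate Fabp3 was called higher in SJL/J left ventricle (0.88, adjusted p = 0.0292). Summed over 10 markers of endothelial cells, on whose surface Lpl acts and which also make Cd36, the signal was 6419 to 8670 in SJL/J left ventricle, 5534 to 7047 in C57BL/6 left ventricle, 1388 to 1512 in SJL/J quadriceps and 1569 to 1862 in C57BL/6 quadriceps, and 9 of the 10 rose in left ventricle in each strain. Their part in the tissue difference of Lpl and Cd36 was not tested.

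Cpt2 read 3022, 2844, 3411 and 2202 in SJL/J left ventricle, against 1481, 1574 and 1330 in SJL/J quadriceps, and rose by 0.96 ± 0.18 on the log2 scale (adjusted p = 0.000311). In C57BL/6 it read 3287, 3269, 3235 and 3383 in left ventricle, against 1048, 1459, 1763, 1406 and 1805 in quadriceps, and rose by 1.16 ± 0.16 (adjusted p = 9.96e-06). The tissues did not overlap in either strain. Acadl rose by 1.33 ± 0.29 in SJL/J (adjusted p = 0.00141) and 1.17 ± 0.26 in C57BL/6 (adjusted p = 0.00122). Acadm rose by 1.02 ± 0.27 in SJL/J (adjusted p = 0.00594) and 1.14 ± 0.24 in C57BL/6 (adjusted p = 0.000837). For none of these 3 enzymes was the tissue difference called as different between the strains. Decr1 rose by 0.74 ± 0.22 in SJL/J (adjusted p = 0.0124) and by 3.99-fold in C57BL/6 (95% interval of the log2 difference 1.58 to 2.41, adjusted p = 3.05e-07), the smaller difference in SJL/J being the same interaction as above; with all 20 arrays the SJL/J value was 0.51 and not called (adjusted p = 0.0618). The other SJL/J values with all 20 arrays were 1.44 for Cd36, 1.36 and 1.33 for the Lpl probe sets, 0.66 for Cpt2, 0.91 for Acadl, 0.66 for Acadm (adjusted p = 0.0497), -1.27 for Ucp3 and -0.32 for Fabp3, and those called among the 16 arrays stayed called.

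Ucp3 was lower in left ventricle than in quadriceps, with log2 differences of -1.56 ± 0.24 in SJL/J (adjusted p = 5.27e-05) and -0.63 ± 0.21 in C57BL/6 (adjusted p = 0.0201). The SJL/J ventricle arrays, at 96.5 to 152.7, stood clear of the SJL/J quadriceps arrays, at 297.6 to 408.8. The C57BL/6 ventricle arrays, at 160.1 to 284.4, overlapped with the C57BL/6 quadriceps arrays, at 268.6 to 505.6, and leaving out C57BL/6 left ventricle array 4 ended the call (-0.46, adjusted p = 0.0902). With run as a block over all 20 arrays, limma called 0 of the 9 between the SJL/J tissues (1 at an unadjusted p under 0.05). Between the C57BL/6 tissues it called 2, Fabp3 (3.12, adjusted p = 0.00581) and Decr1 (1.69, adjusted p = 0.0158). The SJL/J values then come from left ventricle array 1 and quadriceps arrays 1 and 5 alone. These carried transcripts of both tissues, so the fit cannot decide whether the SJL/J tissues differ. The C57BL/6 values link left ventricle array 5 to quadriceps array 4 through SJL/J quadriceps arrays of both runs.

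**Figure D3:**
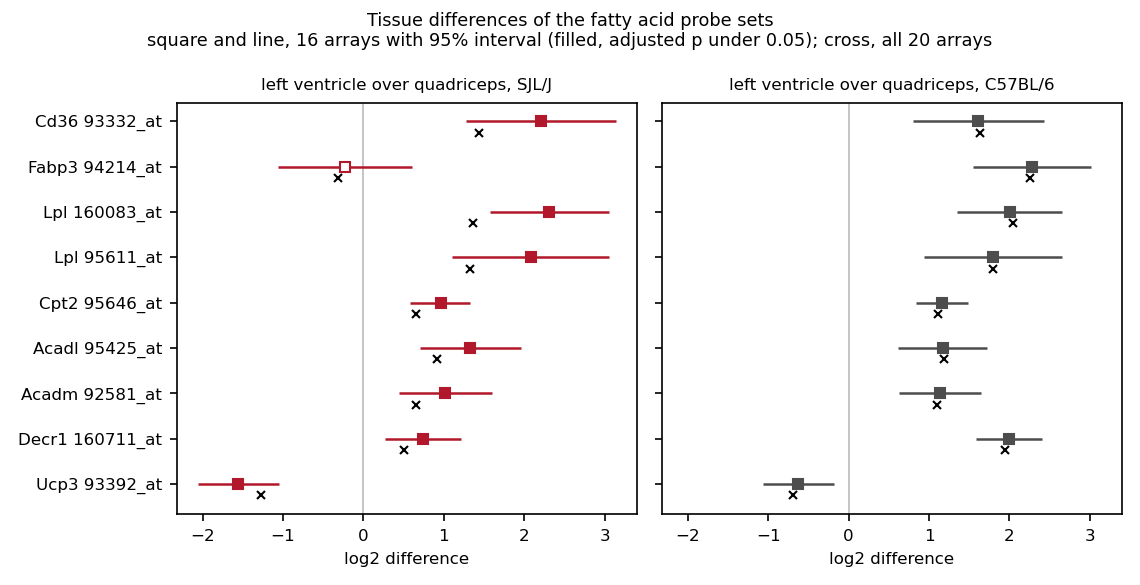
Log2 difference left ventricle over quadriceps (x axis) of each tested probe set, in SJL/J on the left and in C57BL/6 on the right. Squares with 95% intervals come from the 16 tested arrays, filled where the adjusted p is under 0.05, and crosses from all 20 arrays. Ucp3 is the only filled square below 0 in each panel, Fabp3 is open near 0 in SJL/J, and in SJL/J the crosses of Cd36 and Lpl lie nearer 0 than the squares.

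The fatty acid genes also stood apart on most of the 4 arrays kept out of the 16-array fit. On SJL/J quadriceps array 1, Cd36 read 677, Lpl 160083_at 497, Lpl 95611_at 7462, Cpt2 2612, Acadl 1876 and Acadm 3406, each above the 3 tested SJL/J quadriceps arrays. Ucp3, at 210.9, lay below them, while Fabp3 (1222) and Decr1 (482.7) lay within their range. SJL/J quadriceps array 5 was above the range in every probe set but Ucp3 (233.8, below it), and its Fabp3 signal of 3611 exceeded that of every other SJL/J array of either tissue, the highest of which read 2060. On SJL/J left ventricle array 1, Fabp3 (2060), Decr1 (710.9), Cpt2 (3554) and Lpl 160083_at (681.0) lay above the tested SJL/J ventricle arrays and Lpl 95611_at (8343) below them. On C57BL/6 left ventricle array 5, Fabp3 (4527), Decr1 (987.1), Cpt2 (2762) and Acadm (4016) lay below the tested C57BL/6 ventricle arrays. The source of the foreign transcripts was not tested.

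**Figure D4:**
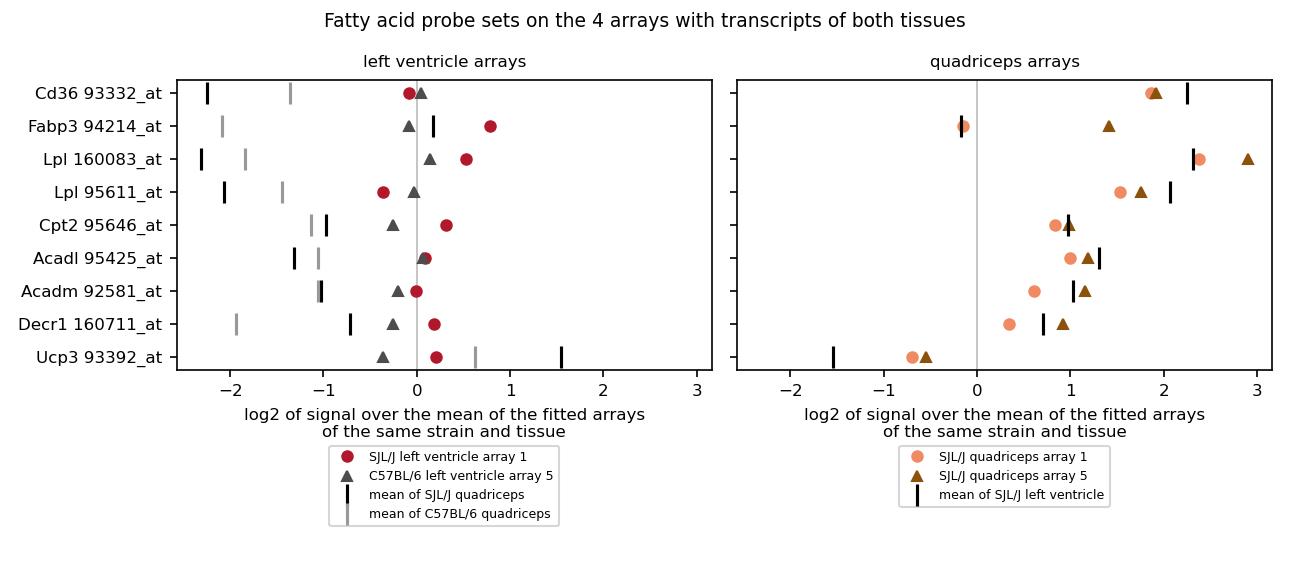
Signal on each of the 4 arrays with transcripts of both tissues, as log2 over the mean of the tested arrays of the same strain and tissue (x axis), for the 9 probe sets. Circles and triangles are arrays, and vertical ticks mark the mean of the other tissue of the same strain. On the quadriceps arrays most points lie near the ventricle tick, with Ucp3 on the low side, and Fabp3 on array 5 lies far from its tick.

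The other genes of the same pathways were read from fixed lists, taking for each gene its brightest probe set and leaving out the 10 genes above. Counts of called genes are to be read beside the shares of all probe sets, 9.09% higher and 12.7% lower in left ventricle and 9.85% higher and 8.3% lower in quadriceps. In left ventricle, 0 of 10 tested genes of fatty acid uptake and binding rose in SJL/J and 2 fell, with a median of 0.11, so the count is near that share. These were Slc27a1, a fatty acid transport protein that read 22.2 to 35.2 in SJL/J and 142.0 to 318.7 in C57BL/6 (log2 -2.95 ± 0.32, limma adjusted p = 6.95e-06), and Dbi, the acyl-CoA binding protein (-1.40 ± 0.19, adjusted p = 5.5e-05). Of 8 genes of fatty acid activation and the carnitine shuttle with a mean over the filter in 2 groups or more, 0 rose and 3 fell, with a median of -0.33 (-0.52 with Slc22a5, which passed through C57BL/6 left ventricle alone). The carnitine-acylcarnitine carrier Slc25a20 read 802.9 to 961.6 in SJL/J and 1376 to 1675 in C57BL/6 (-0.74 ± 0.16, adjusted p = 0.00303), next to carnitine acetyltransferase Crat (-0.94 ± 0.13, adjusted p = 9.1e-05) and the thioesterase Acot7 (-1.57 ± 0.25, adjusted p = 0.000301). Of 11 genes of mitochondrial beta-oxidation, 1 rose, the thiolase Acaa2 (0.49 ± 0.16, adjusted p = 0.0406), and 2 fell, the electron transfer flavoprotein subunit Etfb (-0.83 ± 0.17, adjusted p = 0.00262) and the dehydrogenase Hsd17b10 (-1.19 ± 0.25, adjusted p = 0.00268), with a median of 0.06. The medians stand beside 0.04 over all probe sets, and all of these genes were called with all 20 arrays too. The lists were not refitted with run or with the Gapdh ratio. For 2 genes the result depended on the probe set: a second one of Etfb gave 0.00, and for the short-chain dehydrogenase Acads the brightest gave 0.11 (adjusted p = 0.612) and the other -1.95 (adjusted p = 3.09e-05).

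Among 8 regulators with a mean over the filter in 2 groups or more, 0 rose and 1 fell in SJL/J left ventricle, beside 12.7% lower of all probe sets, with a median of -0.44. Esrra, the oestrogen-related receptor alpha, read 301.7 to 372.5 in SJL/J and 546.5 to 641.4 in C57BL/6 (log2 -0.78 ± 0.13, adjusted p = 0.000307), although its second probe set gave 0.15 (adjusted p = 0.434). In quadriceps Esrra read 449.8 to 509.6 in SJL/J and 285.3 to 403.0 in C57BL/6 (0.49 ± 0.13, adjusted p = 0.0146), and the strain differences of the 2 tissues differed by 1.27 ± 0.18 (adjusted p = 0.000184). The second probe set gave no call in either of these (-0.03 in quadriceps, adjusted p = 0.896, and -0.19 for the difference, adjusted p = 0.526). Prkag1, a subunit of the AMP-activated kinase, averaged 22.0 in SJL/J left ventricle and 132 in C57BL/6 left ventricle, and since it passed the filter through the C57BL/6 ventricle group alone its test is not used. Ppara, the receptor that induces oxidation genes on fasting, read 55.5 to 119.9 in SJL/J left ventricle and 107.4 to 141.2 in C57BL/6 left ventricle (-0.51, adjusted p = 0.164), and 64.6 to 67.9 in SJL/J quadriceps and 40.7 to 84.2 in C57BL/6 quadriceps (0.10, adjusted p = 0.831). Ppargc1a, a coactivator of these receptors, was too dim to be tested, at 15.9 to 56.2 in SJL/J left ventricle, 36.1 to 86.9 in C57BL/6 left ventricle, 12.8 to 28.5 in SJL/J quadriceps and 21.8 to 31.7 in C57BL/6 quadriceps.

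In quadriceps, 6 of 12 genes of triglyceride storage and lipolysis rose in SJL/J, beside 9.85% higher of all probe sets. No tested gene of mitochondrial beta-oxidation was called there, in this list or among the genes followed above. Of 11 mitochondrial beta-oxidation genes limma called 0 (2 higher and 1 lower at an unadjusted p under 0.05; 3 higher with all 20 arrays), with a median of 0.06. The 12 triglyceride genes had a median of 0.75, beside 0.06 over all, and 0 fell. Those that rose were Mgll, the monoglyceride lipase (0.96 ± 0.16, adjusted p = 0.000592), Fasn, the fatty acid synthase (1.52 ± 0.32, adjusted p = 0.00355), Lipe, the hormone-sensitive lipase (1.23 ± 0.32, adjusted p = 0.0122), the lipid droplet coat protein Plin2 (0.93 ± 0.21, adjusted p = 0.00571) and the desaturases Scd1 (1.05) and Scd2 (0.87), so both lipases and genes of synthesis and storage were among them. The other 6 were not called, with Plin4 at -0.40 and Lpin1 at -0.39. In left ventricle 1 gene of this list, Scd2, rose and 0 fell. Of 10 uptake genes in quadriceps, 2 rose, Fabp4 (0.75) and Dbi (0.84), and 1 fell, the lipoprotein receptor Vldlr (-1.49); of 9 activation and carnitine genes, 2 rose, Acsl5 (1.18) and Mlycd (0.54). Of 9 regulators 2 rose, Pparg (0.74) and Esrra. With 9.85% of all probe sets higher in quadriceps, each of these 3 counts is 2 genes where that share gives about 1. Of 4 uncoupling proteins and mitochondrial carriers with a mean over the filter in 2 groups or more 1 rose in quadriceps, the citrate carrier Slc25a1 (1.08 ± 0.23, adjusted p = 0.00341). Ucp1, the uncoupling protein of brown fat, read 115.2 to 1248 in SJL/J quadriceps and 5.7 to 21.1 in C57BL/6 quadriceps, with no overlap; it passed the filter through the SJL/J quadriceps group alone, so its test is not used. With Ucp1 counted, 0 of 5 of this list were called in left ventricle (1 at an unadjusted p under 0.05). With all 20 arrays Dbi, Vldlr, Mlycd, Scd1 and Fasn were no longer called in quadriceps.

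Markers of other cell types also differed between these groups. The adipocyte list shares Lipe, Fabp4 and Pparg, and the brown fat list Ucp1, with the lists above, so these genes are counted in both. Of 8 tested adipocyte markers 7 rose in SJL/J quadriceps (4 with all 20 arrays; 9.85% of all probe sets were higher), where their sum was 3934 to 7237, against 1792 to 2740 in C57BL/6 quadriceps, and 0 were called in left ventricle (1 at an unadjusted p under 0.05; sums 1287 to 1486 in SJL/J and 1284 to 1558 in C57BL/6). The adipokine Adipoq read 1311 to 2400 in SJL/J quadriceps and 627.9 to 974.8 in C57BL/6 quadriceps. Of 4 brown fat markers besides Ucp1, 1 rose in SJL/J quadriceps, Cidea, and the sum over the list was 6157 to 7771 in SJL/J and 2962 to 5462 in C57BL/6. Much of that sum is Cox8b (mean 3644 in SJL/J and 2597 in C57BL/6) and Cox7a1 (2272 in SJL/J and 1847 in C57BL/6), cytochrome oxidase subunits that muscle expresses itself and that were not called there. In left ventricle that sum was 1493 to 1889 in SJL/J and 8003 to 8723 in C57BL/6, carried by Cox8b (-3.51) and Cox7a1 (-2.08), which heart muscle expresses too, while Ucp1 read 5.4 to 29.0 in SJL/J and 8.0 to 33.6 in C57BL/6. Of 12 markers of macrophages (cells that also make Lpl and Cd36) with a mean over the filter in 2 groups or more, 9 rose in SJL/J quadriceps (list sums 3577 to 4824 in SJL/J and 1465 to 2178 in C57BL/6), and in left ventricle 1 rose and 2 fell (sums 3363 to 4882 in SJL/J and 2678 to 3781 in C57BL/6). No defining marker of fat or macrophages was at the floor on any tested array. Their part in the levels of the fatty acid genes was not tested.

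**Figure D5:**
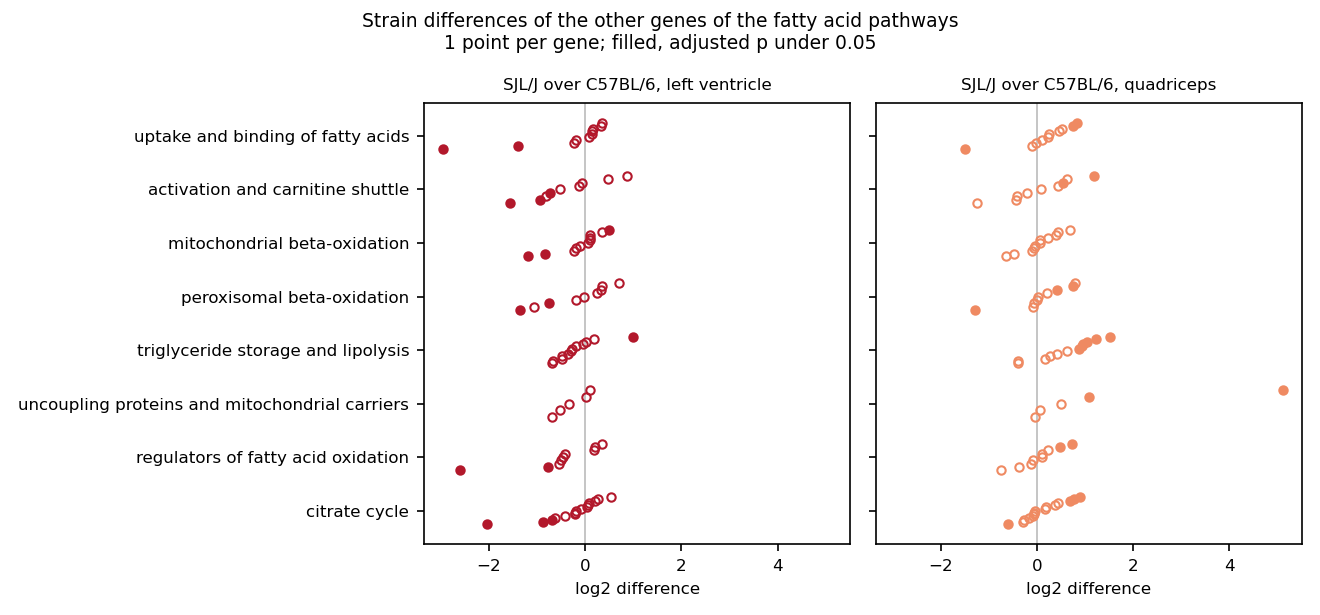
Log2 difference SJL/J over C57BL/6 (x axis) of the tested genes of 8 pathway lists, in left ventricle on the left and in quadriceps on the right, 1 point per gene from its brightest probe set, filled where the adjusted p is under 0.05. The filled points of the carnitine shuttle and the regulators lie below 0 in left ventricle. Those of triglyceride storage lie above 0 in quadriceps, and the point far to the right is Ucp1. Ucp1 and the regulator Prkag1 are among the plotted genes that passed the filter through 1 group alone.

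Most of the other beta-oxidation genes were also higher in left ventricle than in quadriceps. Between the tissues, 23.9% of all probe sets were higher in left ventricle and 20.3% lower in SJL/J. In C57BL/6 these shares were 29.3% and 20.1%. Of the 11 beta-oxidation genes, 8 rose in left ventricle (7 with all 20 arrays) and 0 fell in SJL/J (median 0.80, beside 0.06 over all), and 10 rose and 1 fell in C57BL/6 (median 1.03, beside 0.12). Hadh, the short-chain hydroxyacyl-CoA dehydrogenase, rose by 1.35 ± 0.28 in SJL/J and 1.93 ± 0.25 in C57BL/6, and Etfdh, which passes their electrons to ubiquinone, by 1.63 ± 0.25 in SJL/J and 1.79 ± 0.22 in C57BL/6. The 1 that fell in C57BL/6 was Acads (-0.45), whose other probe set rose (1.34). Of 9 activation and carnitine genes, 3 rose and 2 fell in SJL/J, and 6 rose and 1 fell in C57BL/6 (5 and 1 without Slc22a5). The SJL/J counts of this list are near the shares of all probe sets. Cpt1a, the outer carnitine palmitoyltransferase of liver type, rose by 1.92 ± 0.31 in SJL/J and 2.60 ± 0.28 in C57BL/6. Of 12 triglyceride genes, 1 rose and 7 fell in SJL/J, and 3 rose and 4 fell in C57BL/6, with Scd1 at -4.12 in SJL/J and -2.90 in C57BL/6.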

How the data were processed

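The deposited values are 1 linear intensity per probe set and array, which the authors had brought to a common target: trimmed means (2% off each end) were 199.4 to 199.9 on the 20 arrays. Methods of probe summarisation and background correction were "not given in the sources used here". The 2 chip lots, 2 wash protocols and hybridisation times come from the experiment reports (per the file headers), and a gap over 30 minutes between hybridisations was taken as a new run, which gave 5 runs; this is an inference.

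Of 12488 probe sets 66 are controls. GEO's platform annotation gives 1 gene symbol to 10855 probe sets (22 controls among them), several to 396 and none to 1193 besides controls; 10839 matched a RefSeq gene table of GRCm38.p6 by gene ID and 0 symbols changed. Intensities were floored at their 5th percentile, 3.2, before taking log2. Testing required a group mean over the median intensity, 69.0, in 1 group or more. This filter kept 7180 probe sets of 5508 genes, 9 of the 13 fatty acid probe sets among them. The 4 groups (16 arrays) were fitted together in limma 3.58.1 under R 4.3.3 (lmFit, eBayes with trend, 12 residual degrees of freedom) and 5 comparisons were taken, with Benjamini-Hochberg adjustment. The number of arrays limits the precision, and the labels call them biological replicates. The fit was tested on simulated data. Exact permutation tests used scipy 1.17.1, tables pandas 2.3.3 under Python 3.11.15, and figures matplotlib 3.10.9.

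The genes followed and the 16 gene lists were chosen with earlier results of these data known, so their directions are a description. Named are all probe sets of the fatty acid genes, at most 6 called genes with the smallest p of a list, Ppara, Ppargc1a and Esrra whatever their values, and markers that define a cell type. Acads, Plin4, Lpin1, Slc22a5, the second probe sets of Esrra, Etfb, Idh3g and Dlst, and the brown fat genes were named after their values were seen. Setting aside list genes that passed the filter through 1 group alone was also chosen after seeing the data. Alternatives were the scaling, filter, offset, runs, chip lots, Gapdh ratio, array weights, replicate numbers, pairwise fits and leaving out each array. Sequences of the probes were not used, so differences between the strains under the probes were not tested.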

Additional observations from a re-analysis of the deposited data

Results flagged for a closer look

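The strain differences of Fabp3 and Decr1 differed between the tissues by a test of the difference itself. Quadriceps minus left ventricle was 2.51 on the log2 scale for Fabp3 (limma adjusted p = 0.00335) and 1.26 for Decr1 (limma adjusted p = 0.00744). In left ventricle, strain cannot be told apart from run or RNA quality, and this limits both values.

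Single arrays stood apart from the others of their group, relative to the spread of that group, in SJL/J left ventricle. Array 5 was the highest of 4 in Lpl 95611_at (14014.3) and the lowest of 4 in Acadm (3391.2), and array 3 was the highest of 4 in Acadl (2574.9). The Gapdh ratio of array 5 was 0.101, against 0.269 to 0.335 on the other tested arrays of its group. The part of RNA quality in these values was not tested. All 9 probe sets were examined in each group with 4 or 5 tested arrays, so SJL/J quadriceps, with 3, was not. Chance alone gives such a gap in about 1 of 20 groups for each probe set examined.

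On arrays kept out of the 16-array fit, summed signals of the markers that define heart muscle were 38640 and 42150 on SJL/J quadriceps arrays 1 and 5, above the highest tested C57BL/6 quadriceps array (6367).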

How the results depend on the processing

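Over all settings, 1345 values of the 9 probe sets were recomputed: 1192 kept their direction and their side of the threshold, 50 lost a call, 31 gained one and 72 turned direction; the cause was not tested. Depth is replaced here by signal over background: 4 of 13 probe sets were too dim to test. Run as a block was not possible on 16 arrays outside the quadriceps comparison, nor a pairwise fit of the difference between tissues, and keeping 1 probe set per gene drops Lpl 160083_at.

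Probe sets called between the strains in quadriceps were 1303, and 685 when groups were fitted in pairs. The fatty acid probe sets called there were 1, and 0 with groups fitted in pairs, with 1 probe set per gene (the brightest) or with no filter (limma; 1, 0 and 1 at an unadjusted p under 0.05), 2 with the Gapdh ratio as a covariate, and 6 with run, with chip lot or, over all 20 arrays, with run as a block. In left ventricle 1562 were called, and 2453 in pairs, 2702 with array weights, 0 over all 20 arrays with run as a block (614 at an unadjusted p under 0.05) and 66 with run as a random block. The fatty acid probe sets called there were 3, and 5 in pairs, 1 with the Gapdh ratio, 0 with run as a block and 0 as a random block. Between the tissues in SJL/J, run as a block gave 17 probe sets and 0 fatty acid ones, and as a random block 1144 and 2. In C57BL/6 these were 820 and 2, and 1365. Outside the quadriceps comparison, run as a block depends on the 4 arrays with transcripts of both tissues. For the difference between tissues 1327 were called, and 2285 with array weights, 324 (1 fatty acid probe set) with run as a block and 126 (1) as a random block. Median centring moved the median of all probe sets from 0.06 to -0.04 in quadriceps and from 0.12 to -0.06 between the C57BL/6 tissues.

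Same-numbered arrays did not deviate together (correlations -0.08 to 0.06), and the main fit used no pairing. With 3 or 4 pairs per comparison, these correlations cannot show whether same-numbered tissues came from the same mouse. With the replicate block 1118 probe sets were called in quadriceps (0 fatty acid ones by limma, 1 at an unadjusted p under 0.05), 1092 in left ventricle (4), 2856 and 3316 between the tissues in SJL/J and C57BL/6 (8 each) and 800 for the difference between tissues (2). Directions that turned under the block were Acadl in quadriceps (0.04), Cd36 in left ventricle (-0.03), Fabp3 between the SJL/J tissues (0.01), and Lpl 160083_at (0.08), Acadl (0.01) and Lpl 95611_at (0.23) in the difference between tissues.

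Other directions turned in quadriceps. Cd36, Acadl and Cpt2 were 0.42, 0.42 and 0.35 with all 20 arrays, 1.30, 0.93 and 0.05 with run or chip lot as a block, and 0.62, 0.54 and 0.03 with run as a random block. Acadl was 0.01 and Cpt2 0.04 with quantile normalization, and Cd36 0.21 and Acadl 0.24 with the Gapdh ratio. Acadm was -0.03 with median centring and -0.11 with array weights, where Ucp3 was 0.00. In left ventricle Acadm was 0.94 with the Gapdh ratio, 0.06 with array weights and 0.17 with run as a block, where Cpt2 was 0.36. Fabp3 between the SJL/J tissues was 0.88 with the Gapdh ratio. In the difference between tissues, Lpl 160083_at, Cd36, Acadl and Lpl 95611_at were 0.68, 0.19, 0.28 and 0.45 with all 20 arrays, 0.62, 1.05, 0.80 and 1.15 with chip lot as a block, 0.25, 1.15, 0.78 and 1.47 with run as a block, and 0.24, 0.37, 0.40 and 0.56 with run as a random block. There Ucp3 was -0.15 and Cpt2 -0.31 with run as a block, Lpl 95611_at 0.03 with quantile normalization, and Acadm -0.40 with the Gapdh ratio and -0.17 with array weights.

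Leaving out 1 array at a time, the probe sets called ranged from 847 to 1965 in quadriceps (0 to 1 fatty acid ones), 1065 to 2188 in left ventricle (3 to 4), 2628 to 3686 between the SJL/J tissues (7 to 8), 3126 to 3933 between the C57BL/6 tissues (8 to 9) and 974 to 2170 for the difference between tissues (2 to 3). In left ventricle Fabp3 ran from -2.19 to -1.82, Decr1 from -0.96 to -0.88 and Ucp3 from -1.16 to -0.88. Signs turned in quadriceps for Acadl (-0.27 to 0.17), Acadm (-0.19 to 0.22), Cpt2 (-0.13 to 0.06) and Ucp3 (-0.19 to 0.07), in left ventricle for Acadm (-0.11 to 0.09), between the SJL/J tissues for Fabp3 (-0.36 to 0.01) and in the difference between tissues for Acadl (-0.41 to 0.03), Acadm (-0.14 to 0.27) and Lpl 95611_at (-0.64 to 0.09).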

Other observations

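Further lists were read beside the fatty acid genes. Of 15 tested genes of the citrate cycle, which burns the acetyl-CoA of beta-oxidation, 0 rose and 3 fell in SJL/J left ventricle, beside 9.09% higher and 12.7% lower of all probe sets: the isocitrate dehydrogenases Idh2 (log2 -2.05 ± 0.28, limma adjusted p = 7.7e-05) and Idh3g (-0.68 ± 0.15, adjusted p = 0.0039), and Dlst of the oxoglutarate dehydrogenase complex (-0.88 ± 0.14, adjusted p = 0.000349). In quadriceps 3 rose, Dlst (0.89), Sdhc (0.68) and Sdhd (0.77), and 1 fell, Idh3a (-0.61), beside 9.85% higher and 8.3% lower. Second probe sets ran the other way without a call for Idh3g in left ventricle (0.20, adjusted p = 0.673) and for Dlst in quadriceps (-0.28, adjusted p = 0.501). The medians of the list were -0.19 in left ventricle and -0.03 in quadriceps, beside 0.04 and 0.06 over all probe sets.

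Of 9 tested genes of peroxisomal beta-oxidation, which shortens very long chains, 0 rose and 2 fell in SJL/J left ventricle, the membrane transporter Abcd3 (-1.35 ± 0.15) and Pex19 (-0.75 ± 0.20), and in quadriceps 2 rose, the thiolases Acaa1a (0.42, not called with all 20 arrays) and Acaa1b (0.76), and 1 fell, Abcd3 (-1.29 ± 0.16); at these list sizes the counts are near the shares of all probe sets given above. Of 6 tested genes of fuel choice, limma called 0 in left ventricle (2 at an unadjusted p under 0.05). In quadriceps 1 rose, the pyruvate dehydrogenase kinase Pdk3 (2.30 ± 0.32, adjusted p = 0.000126), beside 9.85% higher of all probe sets. The other 5 were not called there, and a fasting response was not tested.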
